A study of Mus musculus with 7 samples.

Results

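GATA2 peaks at promoters that were not found with 9aa-Ins and that had no GATA motif at their summit numbered 1982, of 6254 peaks in the GATA2 list (31.7%). The peaks come from CUT&Tag, in which an antibody brings a transposase to the DNA around a bound protein, so that the DNA nearby is tagged and sequenced. The cells were hi-77-/- cells, mouse fetal liver progenitors immortalized with ER-Hoxb8 and lacking the -77 enhancer of Gata2, and they were grown with β-estradiol. A retrovirus carried GATA2 or its mutant form 9aa-Ins into them, each with an HA tag, and GFP+ cells were sorted 3 days later. In 9aa-Ins, extra amino acids separate the N-terminal and the C-terminal zinc finger. Each anti-HA peak list merged 2 replicates, which had been split from 1 pool of cells, and the lists keep no value for either replicate, so no value below has an SD. The methods describe calling peaks in each replicate and merging them afterwards, whereas the deposited lists are named as merged replicates and keep the peak caller's own columns with 1 background value a list. A pileup may therefore stand for the reads of both replicates or of 1. Both proteins were exogenous, came from a retrovirus and were measured in a single immortalized line, and 3 further libraries, with an antibody against GATA2, were left aside.

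The members were chosen by the peak calls themselves. A member overlapped no 9aa-Ins peak by 1 bp or more, had its summit from 2 kb upstream to 100 bp downstream of a transcript start of a protein-coding gene (GENCODE M21, mm10), and had no WGATAR within 100 bp of the summit on either strand. W stands for A or T and R for A or G in this motif, to which the zinc fingers of GATA factors bind. Of 2320 GATA2-only promoter peaks, 1982 were members and 338 held WGATAR. The classes set beside the members were these 338 peaks, 600 promoter peaks shared with 9aa-Ins that lacked WGATAR, and 1550 GATA2-only peaks outside promoters that lacked WGATAR.

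GATA2 is a zinc finger factor of blood stem and progenitor cells that acts at WGATAR sites, most of them in enhancers, together with factors such as TAL1, RUNX1 and ETS proteins. Promoters of housekeeping genes are usually CpG islands, stretches rich in C and G whose CpG dinucleotides have been kept. Such promoters carry sites for ETS factors, NRF1, SP and KLF factors, NF-Y and YY1 near the start of transcription. A transposase also cuts open chromatin, and promoters of active genes are open. No library with a control antibody was used here, and open chromatin without bound GATA2 and occupancy by GATA2 cannot be told apart in these lists.

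The following 61 bp, centred on summits on the plus strand of GRCm38, show the kind of sequence the members hold. For each motif the member of highest pileup was taken whose sequence lay upstream of its start and outside annotated exons, and the motif on either strand is in capitals.
Ifrd2, ETS, chr9:107587551-107587611: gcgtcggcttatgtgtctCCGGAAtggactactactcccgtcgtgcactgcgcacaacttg
Hp1bp3, NRF1, chr4:138217055-138217115: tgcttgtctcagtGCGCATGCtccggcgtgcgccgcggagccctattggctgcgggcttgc
Kdm4b, SP/KLF, chr17:56325876-56325936: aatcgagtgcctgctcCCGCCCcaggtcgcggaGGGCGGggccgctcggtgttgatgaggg
Cpeb4, YY1, chr11:31870611-31870671: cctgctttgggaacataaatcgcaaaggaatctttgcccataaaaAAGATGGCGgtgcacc
Efcab14, CRE, chr4:115737667-115737727: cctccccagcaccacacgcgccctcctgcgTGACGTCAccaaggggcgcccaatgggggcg
Cks2, NF-Y, chr13:51645121-51645181: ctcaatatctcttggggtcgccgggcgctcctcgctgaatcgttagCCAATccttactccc
Fzr1 had the highest pileup of all members, and Gata1 is a gene the study describes as activated by GATA2. Their summits are shown with each CG in capitals.
Fzr1, chr10:81378650-81378710: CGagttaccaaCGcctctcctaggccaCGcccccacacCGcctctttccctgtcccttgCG
Gata1, chrX:7967986-7968046: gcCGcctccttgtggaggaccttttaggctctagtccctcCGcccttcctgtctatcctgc
For contrast, the promoter peak of Cpa3, a mast cell protease gene, was GATA2-only and held WGATAR, here in capitals.
Cpa3, chr3:20244117-20244177: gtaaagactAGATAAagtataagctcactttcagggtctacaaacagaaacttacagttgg

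Most members were low and narrow peaks, and a part of them lay close to the detection limit of the list. Their median −log10 q-value was 13.7, where a call needed 6. Pileup, the depth of reads stacked over a summit, was recovered from the deposited fold enrichment, which equals pileup plus 1 over background plus 1. Its median was 14 reads in the members, with quartiles of 12 and 17 reads and a range of 9 to 44 reads, where the lowest pileup in either list was 9 reads. In the members, 408 peaks (20.6%) had 11 reads or fewer and 30 peaks (1.51%) had over 29 reads. Background was 0.464 reads with GATA2 and 0.455 reads with 9aa-Ins, so that the same pileup was needed for a call in both. The members' median width was 312 bp, with quartiles of 236 and 448 bp and a range of 167 to 1930 bp.

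Shared promoter peaks without WGATAR were taller and wider, with a median pileup of 21 reads and a median width of 564.5 bp. GATA2-only promoter peaks with WGATAR had a median of 15 reads and 352.5 bp, and distal GATA2-only peaks without WGATAR a median of 13 reads and 298 bp. As overlap with a 9aa-Ins peak was part of the choice, these heights are descriptions and were not tested. A pileup of 14 reads or fewer was found in 54.3% of members but in 13.7% of shared promoter peaks without WGATAR.

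**Figure D1:**
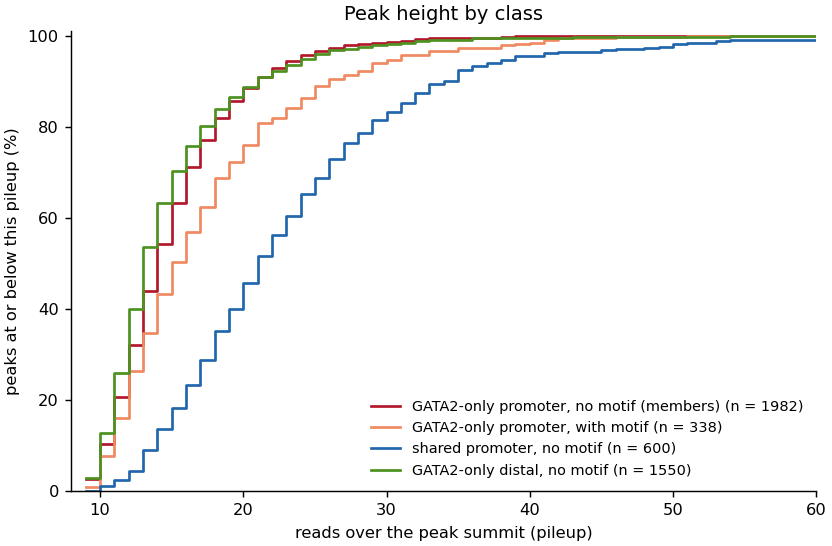
Cumulative share of peaks (y axis, percent) at or below each pileup (x axis, reads over the summit) for the members and 3 other classes of GATA2 peaks. The members lie close to distal GATA2-only peaks without WGATAR, with 88.6% and 88.7% at 20 reads or fewer, whereas the shares are 76.0% in GATA2-only promoter peaks with WGATAR and 45.7% in shared promoter peaks without it.

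Values on each side of the limits of the rule are given as a description. The 37 members with the nearest base of a WGATAR 96 to 110 bp from the summit had a median pileup of 16 reads, and the 42 promoter peaks left out because it was 81 to 95 bp away had a median of 14 reads. The 8 members in the last 200 bp of the upstream limit had a median of 14 reads, beside 18 reads for 5 peaks in the 200 bp beyond it. The 500 members with summits 1 to 100 bp downstream had a median of 14 reads, beside 13 reads for 189 peaks over 100 and up to 200 bp downstream. Of the members, 13 had a 9aa-Ins peak 1 to 200 bp away (median 14 reads), and 82 shared promoter peaks without WGATAR overlapped one by 200 bp or less (median 16 reads).

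Position was part of the choice, with the same limits for all promoter classes, so the positions of the members alone are a description. The median position was 87 bp upstream, and 949 summits (47.9%) lay from 200 bp upstream to the start itself, 500 (25.2%) up to 100 bp downstream, 458 (23.1%) more than 200 and up to 1000 bp upstream and 75 (3.78%) farther upstream. The peak covered its nearest start in 1218 members (61.5%), and the summit itself lay in an annotated exon in 796 members (40.2%). Start-proximal summits, from 200 bp upstream to 100 bp downstream, made up 73.1% of members (95% Wilson interval 71.1 to 75) and 60.9% of GATA2-only promoter peaks with WGATAR (55.7 to 66). This difference of 12.2 percentage points (6.73 to 17.8) passed Fisher's exact test (two-sided, adjusted p = 3.10e-05 over 7 comparisons of shares). Between windows of 55% to 70% GC it was 2.08 points and did not pass the same exact test (adjusted p = 0.582), and it did not pass between peaks of 12 to 20 reads either (7.53 points, adjusted p = 0.0956). In shared promoter peaks without WGATAR the share was 68.3%, and the difference of 4.77 points (0.663 to 9.05) did not pass after adjustment (Fisher's exact test, adjusted p = 0.0597). It passed in 7 of 15 alternatives, among them peaks with a q-value of 1e-10 or less (7.99 points, exact test, adjusted p = 0.00243).

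**Figure D2:**
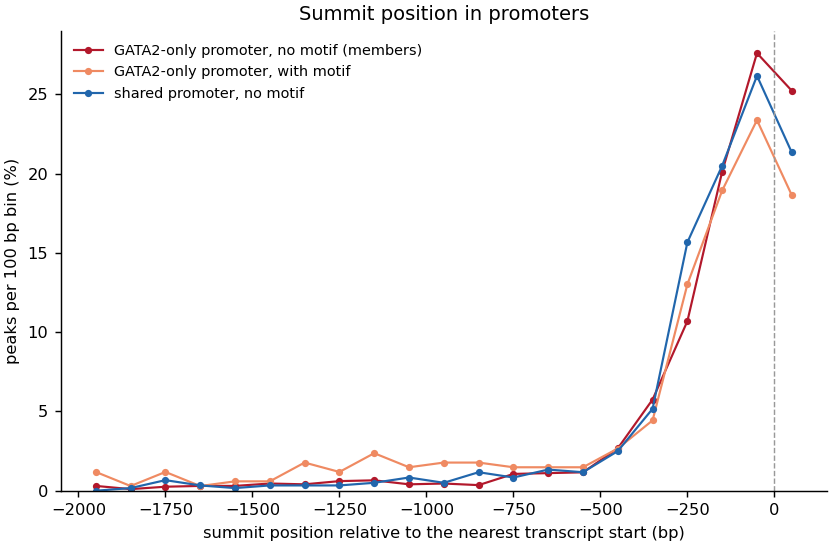
Share of peaks in each 100 bp bin (y axis, percent) against the position of the summit relative to the nearest transcript start (x axis, bp, negative upstream) for the members, GATA2-only promoter peaks with WGATAR and shared promoter peaks without it. The highest bin of the members is the 100 bp upstream of the start with 27.6%, beside 23.4% and 26.2% in the other classes.

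Divergent promoters, where genes on opposite strands start head to head within 1 kb, were found at 210 members (10.6%). They made up 6.82% of all gene starts, which were counted from the gene start and not from a summit. The share was 11.5% in shared promoter peaks without WGATAR (difference -0.905 points, -3.98 to 1.81, Fisher's exact test, adjusted p = 0.570). It was 7.69% in GATA2-only promoter peaks with WGATAR (difference 2.90 points, -0.674 to 5.69, exact test, adjusted p = 0.166). Neither difference passed the test, and the intervals leave room for differences of several points.

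The windows of the members were CpG islands in most cases. GC content within 100 bp of the summit had a median of 65.2% and observed over expected CpG a median of 0.807, and 1565 members (79.0%, 77.1 to 80.7) were CpG-rich, with at least 50% GC and a ratio of at least 0.6. Distal GATA2-only peaks without WGATAR were CpG-rich in 29.5%, a difference of 49.5 points (46.5 to 52.3) that passed Fisher's exact test (adjusted p = 3.29e-197). The rule placed the members at promoters and these peaks outside them. The test therefore cannot tell a trait of the members from one of promoters in general. Shared promoter peaks without WGATAR were CpG-rich in 82.2%, and the difference of -3.21 points (-6.61 to 0.492) did not pass the exact test (adjusted p = 0.163). It did pass, at -5.01 points (exact test, adjusted p = 0.0202), once promoters of replication-dependent histone genes were left out, and was -0.724 points (exact test, adjusted p = 0.789) among peaks with a q-value of 1e-10 or less. Of the windows around all gene starts that lacked WGATAR, 53.6% were CpG-rich.

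The GATA motif itself was part of the choice, so its absence at the summits is no result. For scale, 16.2% of windows of the same length around all gene starts held WGATAR. A GATA core without the flanking bases of WGATAR was present in 423 members (21.3%), in 23.3% of shared promoter peaks without WGATAR, in 32.1% of distal GATA2-only peaks without WGATAR and in 24.6% of gene-start windows without WGATAR.

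Beyond the window that the rule used, WGATAR was nearer to the members than to shared promoter peaks without the motif. The nearest WGATAR lay a median of 518 bp from the summits of members and 600 bp from those of shared promoter peaks. A whole WGATAR within 200 bp of the summit was present in 245 members (12.4%, 11 to 13.9) and in 45 of 600 shared promoter peaks (7.50%, 5.65 to 9.89). The difference of 4.86 points (2.10 to 7.26) had p = 8.60e-04 in Fisher's exact test, a comparison chosen after the data were seen. The share was 17.3% around all gene starts without WGATAR in the inner window, and 30.8% in distal GATA2-only peaks, where the median distance was 312 bp. In 226 members (11.4%) a WGATAR lay within the peak itself but away from the summit. The Gata1 peak was 1 of these, with the nearest WGATAR 404 bp from its summit, and so was the Itga2b peak, with WGATAR 105 bp away.

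Motifs of other factors were searched on both strands of the same windows. The 19 motifs were ETS (CCGGAA), the longer PU.1 site (GAGGAAGT), NRF1 (GCGCATGC), the GC box of SP and KLF factors (GGGCGG), the cAMP response element CRE (TGACGTCA), the CCAAT box of NF-Y (CCAAT), YY1 (AANATGGCG), the BANP and ZBTB33 core (CTCGCGAG), ZNF143 (ACTACAA), the E-boxes CACGTG of MYC and USF factors and CAGNTG of TAL1 and E proteins, RUNX (TGTGGT), AP-1 (TGANTCA), C/EBP (TTGCNNAA), IRF (GAAANNGAA), MYB (AACNGCC), HOX-PBX (TGATTNAT), the TATA box (TATAAA) and a variant core bound by GATA factors in vitro (GATCTTA). Some of them overlap by their letters, as a SP/KLF box and a CpG-rich window do, and a match is only a match of letters. None of the 19 was found in 144 members (7.27%).

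Against their own flanks, the windows 2 kb away on the side opposite to the gene, the members held 11 motifs more often and 8 less often. All 19 passed the exact McNemar test (two-sided, adjusted over 19 motifs), and the flanks had a median GC content of 45.3%. The rule placed the summits in promoters but set no such limit for the flanks. A trait of the members and one of promoters in general can thus not be told apart here. Of all gene-start windows without WGATAR, 44.5% held the GC box, 16.5% ETS and 7.04% the TATA box. The GC box was held by 64.3% of summits and 4.04% of flanks, and ETS by 19.2% (380 members) and 2.22%. NRF1 was held by 4.24% of summits and 0.706% of flanks, YY1 by 3.38% and 0.151%, and CRE by 1.92% and 0.0505%. Less often than their flanks, the members held the TATA box (2.42% against 14%), the TAL1 kind of E-box (28.4% against 40.6%) and RUNX (7.27% against 14.4%).

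Against distal GATA2-only peaks without WGATAR, 15 of 19 motifs passed Fisher's exact test (two-sided, adjusted over 57 tests), 9 higher in the members and 6 lower. The rule parts these classes by promoter position, so the comparison cannot separate the members from promoters in general. The levels at all gene starts are given further below. ETS was held by 19.2% of members and 8.84% of distal peaks, a difference of 10.3 points (8.08 to 12.6, exact test, adjusted p = 2.64e-17). NF-Y was held by 30.8% and 18.1%, a difference of 12.8 points (9.94 to 15.5, exact test, adjusted p = 2.64e-17), and the GC box by 64.3% and 27.0%. NRF1 (4.24% against 1.10%), YY1 (3.38% against 0.645%) and ZNF143 (3.33% against 1.03%) were higher as well. RUNX was held by 7.27% of members and 18.7% of distal peaks, a difference of -11.4 points (-13.7 to -9.21, exact test, adjusted p = 3.92e-23). The TAL1 kind of E-box (28.4% against 42.8%), AP-1 (2.62% against 8.84%) and PU.1 (1.92% against 3.61%) were also lower in the members.

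Base composition moved with this comparison, since the median GC content was 65.2% in the members and 56.2% in the distal peaks. Between windows of 55% to 70% GC, 9 of the motifs passed (1255 members and 701 distal peaks). ETS was then held by 20.7% against 12.1% (Fisher's exact test, adjusted p = 1.82e-05), NF-Y by 34.5% against 15.3% and NRF1 by 5.10% against 1.14%. RUNX was held by 8.45% against 14.7% (Fisher's exact test, adjusted p = 1.80e-04), the TAL1 kind of E-box by 29.2% against 44.9% and AP-1 by 2.63% against 6.99%. PU.1 (1.75% against 3.14%, Fisher's exact test, adjusted p = 0.228), CRE, the BANP and ZBTB33 core, the E-box of MYC, C/EBP and HOX-PBX no longer passed.

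Against GATA2-only promoter peaks with WGATAR, 4 motifs passed, and the median GC content was 65.2% in the members and 57.2% in those peaks. The GC box was higher in the members (64.3% against 39.9%, difference 24.4 points, 18.7 to 29.9, adjusted p = 5.77e-16 by Fisher's exact test). RUNX (7.27% against 15.1%, exact test, adjusted p = 5.19e-05), the TAL1 kind of E-box (28.4% against 35.8%, adjusted p = 0.0201) and C/EBP (3.48% against 6.80%, adjusted p = 0.0201) were lower. Within 55% to 70% GC, where 188 of these peaks remained, none of the 4 passed. The GC box was then held by 61.4% against 52.7%, RUNX by 8.45% against 12.8%, the TAL1 kind of E-box by 29.2% against 31.9% and C/EBP by 3.75% against 6.38%. IRF passed in that range, against 0 of 188 windows (3.35%, exact test, adjusted p = 0.0243), a count that allows up to 1.60%, but it did not pass over all peaks (3.28% against 2.96%, exact test, adjusted p = 0.934).

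Against shared promoter peaks without WGATAR, only the TATA box passed, at 2.42% of members and 5.50% of shared peaks (difference -3.08 points, -5.28 to -1.34, adjusted p = 0.00167 by Fisher's exact test). Without the promoters of replication-dependent histone genes the shares were 2.42% and 3.69%, and the TATA box did not pass the exact test (adjusted p = 0.241). ETS was held by 19.2% and 16.2% (difference 3.01 points, -0.569 to 6.27, exact test, adjusted p = 0.241), NF-Y by 30.8% and 32.2% (-1.34 points, -5.67 to 2.82) and the GC box by 64.3% and 62.2% (2.16 points, -2.19 to 6.62). A p that misses the threshold does not show that these shares are equal.

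**Figure D3:**
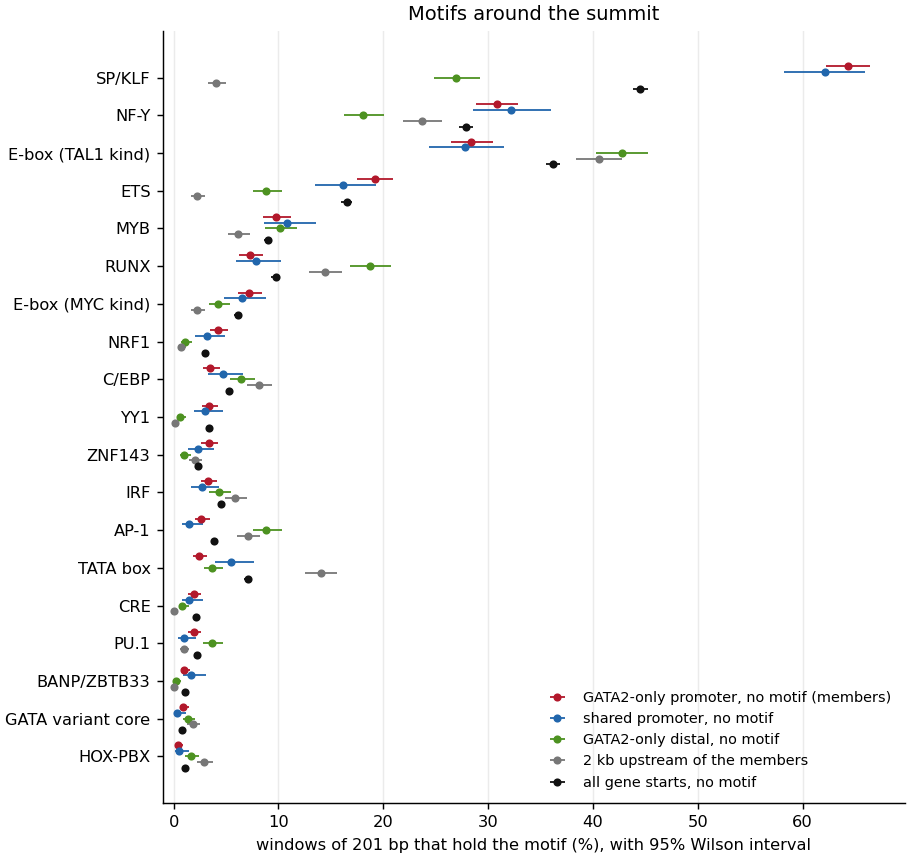
Share of windows, 100 bp to each side of the centre, that hold each motif (x axis, percent, with 95% Wilson intervals) for the members, shared promoter peaks and distal GATA2-only peaks without WGATAR, windows 2 kb upstream of the members and windows around all gene starts without WGATAR. Members and shared promoter peaks lie together for ETS (19.2% and 16.2%), with distal peaks (8.84%) and upstream windows (2.22%) below them.

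Windows around all gene starts without WGATAR give the level of each motif at promoters in general, and they were not tested against the members. ETS was held by 16.5% of these 18382 windows, NRF1 by 3.01%, NF-Y by 27.9% and YY1 by 3.38%. The GC box was held by 44.5% of them, below the 64.3% of the members. Among CpG-rich windows alone, ETS was held by 21.5% of members (19.5 to 23.6) and 25.2% of gene starts (24.4 to 26.1). In the same windows YY1 was held by 3.77% and 5.74% and the GC box by 70.4% and 68.9%.

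The 417 members that were not CpG-rich (21%) held RUNX, the TAL1 kind of E-box and AP-1 at higher shares than the 1565 CpG-rich members. These values are within the members and were not tested. RUNX was held by 11.8% of CpG-poor members (9.00 to 15.2) and 6.07% of CpG-rich members (4.99 to 7.36), the TAL1 kind of E-box by 39.6% and 25.4%, and AP-1 by 5.76% and 1.79%. ETS was held by 10.6% of CpG-poor and 21.5% of CpG-rich members, and the GC box by 41.7% and 70.4%. NF-Y was held by 30.2% and 31.0%, with overlapping intervals. The split itself rests on C, G and CpG content, and gene starts in general, chosen without any peak, went the same way. RUNX was held by 5.58% of CpG-rich and 9.73% of all gene-start windows without WGATAR. The TAL1 kind of E-box was held by 27.3% and 36.2% of them, and AP-1 by 1.82% and 3.85%.

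**Figure D4:**
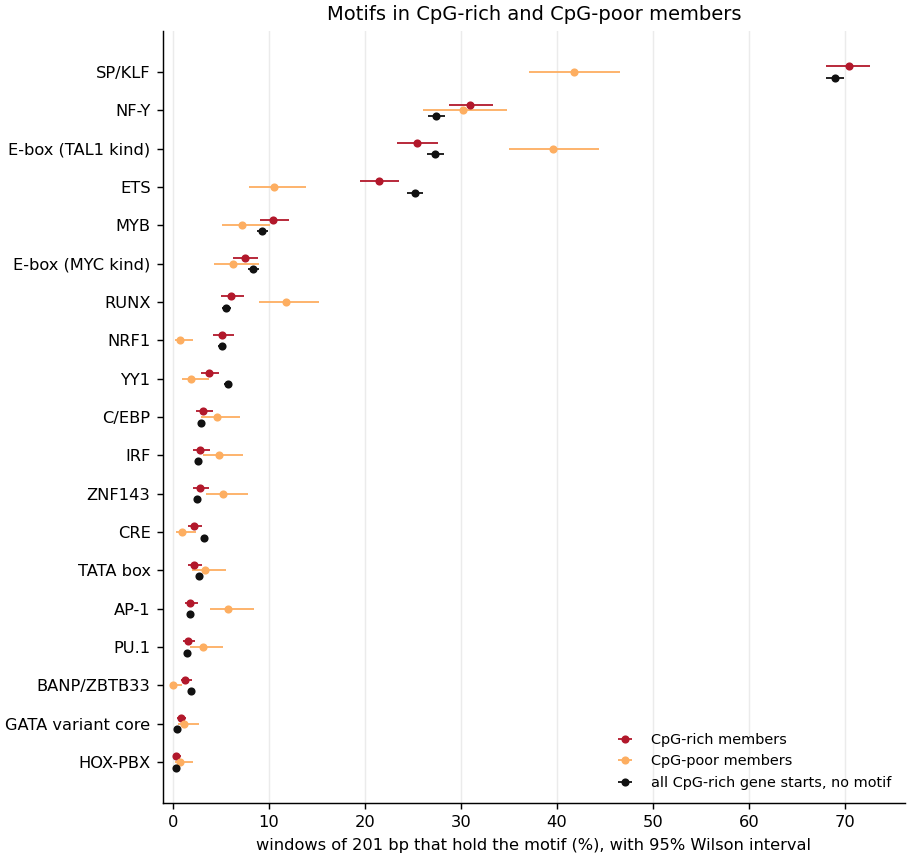
Share of windows, 100 bp to each side of the centre, that hold each motif (x axis, percent, with 95% Wilson intervals) in CpG-rich members, CpG-poor members and CpG-rich windows around all gene starts without WGATAR. RUNX and the TAL1 kind of E-box lie farther right in CpG-poor members (11.8% and 39.6%) than in CpG-rich members (6.07% and 25.4%).

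The share with ETS was not higher in taller members. ETS was held by 21.6% of the 408 members of 9 to 11 reads (17.9 to 25.8) and by 17.1% of the 252 members of 20 to 29 reads (12.9 to 22.2), and the intervals overlap. NF-Y was held by 26.7% (22.7 to 31.2) and 38.5% (32.7 to 44.6) of the same groups, and the GC box by 58.6% and 66.7%. Pileup was part of the choice through the peak call, so these shares are descriptions without a test.

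A separate GATA2-only peak with WGATAR lay 1 to 50 kb away from 429 members (21.6%, 19.9 to 23.5). In shared promoter peaks without WGATAR the share was 20.5%, and the difference of 1.14 points (-2.69 to 4.71) did not pass Fisher's exact test (adjusted p = 0.570). It was 26.0% (21.6 to 31.0) in GATA2-only promoter peaks with WGATAR and 30.8% (28.5 to 33.1) in distal GATA2-only peaks without it. These shares were not tested against the members. In the 30 members of 30 reads or more, 11 (36.7%) had such a peak nearby, with an interval of 21.9 to 54.5 that overlaps that of the lowest members (19.9%, 16.3 to 24.0). A 9aa-Ins peak lay within 1 kb of 49 members (2.47%) and within 10 kb of 111 members (5.60%).

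Members lay at promoters of 2201 of 21938 protein-coding genes (10%), and any GATA2 peak at promoters of 3257 (14.8%). A member reached the promoters of 2 or more genes in 268 cases, and 59 genes had 2 members. Of the genes with a member, 40 also had a shared peak at a promoter and 37 a GATA2-only promoter peak with WGATAR. On the X chromosome 21 of 948 genes (2.22%, 1.45 to 3.36) had a member, against 10.5% (10.1 to 10.9) of autosomal genes, and on the Y chromosome 0 of 183 genes, which allows up to 1.64%. Among autosomes the share ran from 7.55% on chromosome 6 to 14.9% on chromosome 12. These shares rest on promoters, whatever the state of the genes.

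The 20 members of highest fold enrichment lay at genes of many kinds. Fzr1, an activator of the anaphase-promoting complex, had 44 reads over the summit at chr10:81378446-81378994, a deposited fold enrichment of 30.7. Itga2b, which encodes integrin alpha IIb of megakaryocytes, had 43 reads at chr11:102469755-102470553, and Cs, which encodes citrate synthase, 41 reads. Tnfaip1, Nr3c1 (the glucocorticoid receptor) and Siae had 39 reads each, Akap8 and Alg14 38 reads and Ndst2, an enzyme of heparin synthesis, 37 reads. Kdm1b, a histone demethylase, had 35 reads, Ifrd2 34 reads, and the kinase gene Wee1, Lsm4 and 4931428F04Rik 33 reads. Aldh3a2, Cks2, Cyhr1, the histone demethylase gene Kdm4b, 1810062G17Rik and Ube2r2 had 32 reads, as did Gm35315, which tied with them and fell outside the 20 by its position in the genome. Of these 20 windows, 12 were CpG-rich, 14 had a start-proximal summit and 7 had WGATAR elsewhere in the peak.

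The widest members were at Gm20661 (1930 bp, 31 reads), Unc13d (1702 bp, 21 reads), which encodes a protein of granule release, Osbpl8 (1360 bp, 20 reads), the phosphatase gene Ptpn7 (1267 bp, 17 reads) and Gfi1 (1231 bp, 17 reads). All 5 had fewer reads than any of the 20 members of highest fold enrichment.

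Among 9 genes taken from the main text of the study as activated by GATA2, a part of those it names, Gata1 and Kit had a member (22.2%, an interval of 6.32 to 54.7 that includes the 10% of all protein-coding genes). The Gata1 peak, at chrX:7967754-7968515, had 21 reads with its summit 106 bp upstream of a start, and its window had 59.2% GC but an observed over expected CpG of 0.114. The Kit peak, at chr5:75574919-75575155, had 16 reads with its summit 17 bp downstream of the start, in a CpG-rich window of 72.1% GC that held a GC box, and the nearest WGATAR was 860 bp away. Among 25 genes taken from it as repressed, 0 had a member, which allows up to 12% and so includes the 10% of all genes, and 2 (8%) had any GATA2 promoter peak, beside 14.8% of all genes. The 2 lists were not tested against each other. The study names these genes from the same cells, so their counts are not independent.

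Genes for blood transcription factors had a member in 20 of 56 cases (35.7%, 24.5 to 48.8), beside 10% of all protein-coding genes. With gene starts alone as promoters the share was 21.4%, beside 7.88% of all genes. The tallest was at Stat3, the signal transducer of many cytokines, with 25 reads in a peak at chr11:100939276-100939945. Gata1 followed with 21 reads, Klf6 and Klf2 with 18, Tcf4 and Gfi1 with 17, and Gfi1b and Runx3 with 16. Gfi1 had 2 members, of 17 and 13 reads, and Ikzf2 had 2, of 15 and 12 reads. Lyl1 had 14 reads, Myb, Nfe2, Cebpd, Gata3 and Mafk 13 reads, Sox4 and Bach1 12 reads, Ikzf1 and Runx1 11 reads, and Cbfb 9 reads, the lowest a call allowed. Some of these summits were far from a start. Those of Ikzf2 (the taller peak), Mafk and Lyl1 lay 1.91, 1.71 and 1.40 kb upstream of the nearest start, both of Gfi1 1.09 and 1.16 kb and that of Gata3 1.15 kb upstream. The members at Myb and Lyl1 lay 0.506 and 0.804 kb from a 9aa-Ins peak.

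Genes for ETS factors had a member in 5 of 16 cases (31.2%, 14.2 to 55.6), beside 10% of all protein-coding genes. Etv6 had 20 reads, Etv5 19 reads, Elf2 14 and 10 reads in 2 members, Gabpa 12 reads and Ets2 11 reads. Of the windows of these 6 members, that of Gabpa held the ETS motif.

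Genes for growth factor and cytokine receptors and their signalling had a member in 8 of 36 cases (22.2%, 11.7 to 38.1), beside 10% of all protein-coding genes. Ifngr1 and Ifngr2, which encode the chains of the interferon gamma receptor, had 31 reads and, in 2 members, 26 and 21 reads. Tfrc, the transferrin receptor gene, had 26 reads, Tgfbr1 and Kit 16 reads, Il3ra and Tyk2 13 reads and Cxcr4 12 reads. Among interleukin and chemokine genes, 2 of 68 had a member (2.94%, an interval of 0.810 to 10.1 that includes 10%), Ccl3 with 16 reads and Il13 with 12 reads, and the Il13 summit lay 1.36 kb upstream of the start.

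Gene lists of general cell functions are set beside the 10% of all protein-coding genes without a test. Chromatin regulators, a list wider than the polycomb and trithorax genes of its label, had a member in 22 of 59 cases (37.3%, 26.1 to 50). The tallest within the list were Smarca4 (26 reads), the demethylase gene Kdm4a (24 reads), Hdac2 and the methyltransferase gene Kmt2a (20 reads each). The histone demethylase genes Kdm1b (35 reads) and Kdm4b (32 reads) were not in it. Cyclins and cyclin-dependent kinases had one in 13 of 45 cases (28.9%, 17.7 to 43.4), with Cdk17 (24 reads), Ccnf and Ccny (17 reads each) and Ccnt2 (15 reads). Cytosolic ribosomal proteins had one in 23 of 87 cases (26.4%, 18.3 to 36.6), with Rps27a and Rplp1 (20 reads each) and Rps2 and Rpl5 (19 reads each). The peak at Rps27a also lay at the start of Clhc1.

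Ubiquitin enzymes had a member in 21.8% of 87 cases, led by Ube2r2 (32 reads) and Usp20 (28 reads), and RAB and ARF small GTPases in 21.2% of 85 cases, led by Rab5b (22 reads). Translation factors had one in 20.6% of 68 cases, with Eif3d at 27 reads, proteasome subunits in 20.5% of 39 cases, with Psmb1 at 20 reads, and DNA repair genes in 20.4% of 49 cases, with Xrcc6 at 24 reads. With gene starts alone as promoters, 7.69% of the proteasome list had one, beside 7.88% of all genes by that definition. The peak at Psmb1 also lay within the promoter limits of Tbp, the TATA-binding protein gene. Mediator subunits (6 of 30 genes), splicing factors (18.3% of 82), mitochondrial ribosomal proteins (17.9% of 78), RNA polymerase subunits (17.9% of 28) and respiratory chain subunits (16.5% of 85) came next, and the intervals of Mediator (9.51 to 37.3) and RNA polymerase subunits (7.88 to 35.6) include 10%. Lsm4, of the splicing list, had 33 reads.

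The remaining lists were near or under the 10% of all genes with a member. Aminoacyl-tRNA synthetases (11.8% of 34), DNA replication factors (11.6% of 43), general transcription factors (9.09% of 44), solute carriers (8.89% of 371) and C2H2 zinc finger genes (8.82% of 465) had intervals that include 10%. Any GATA2 promoter peak was found in 26.5%, 27.9%, 20.5%, 12.7% and 16.3% of these lists, in that order, beside 14.8% of all genes. A shared promoter peak was found in 2.94%, 16.3%, 13.6%, 2.70% and 4.30% of them. Olfactory receptors had no member in 1135 genes, which allows up to 0.264%, and keratins none in 49 genes, which allows up to 6.12%. Replication-dependent histone genes had a member in 1 of 67 cases (1.49%, 0.264 to 7.98), although 48 of them (71.6%) had some GATA2 peak at a promoter. The share was 28.4% when a shared peak had to overlap by 50% on both sides, beside 11.3% of all genes, and also when it had to have its summit within 200 bp, beside 10.6%. The member, at Hist1h2bc with 10 reads, lay 1.94 kb upstream of a start and 0.344 kb from a 9aa-Ins peak.

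**Figure D5:**
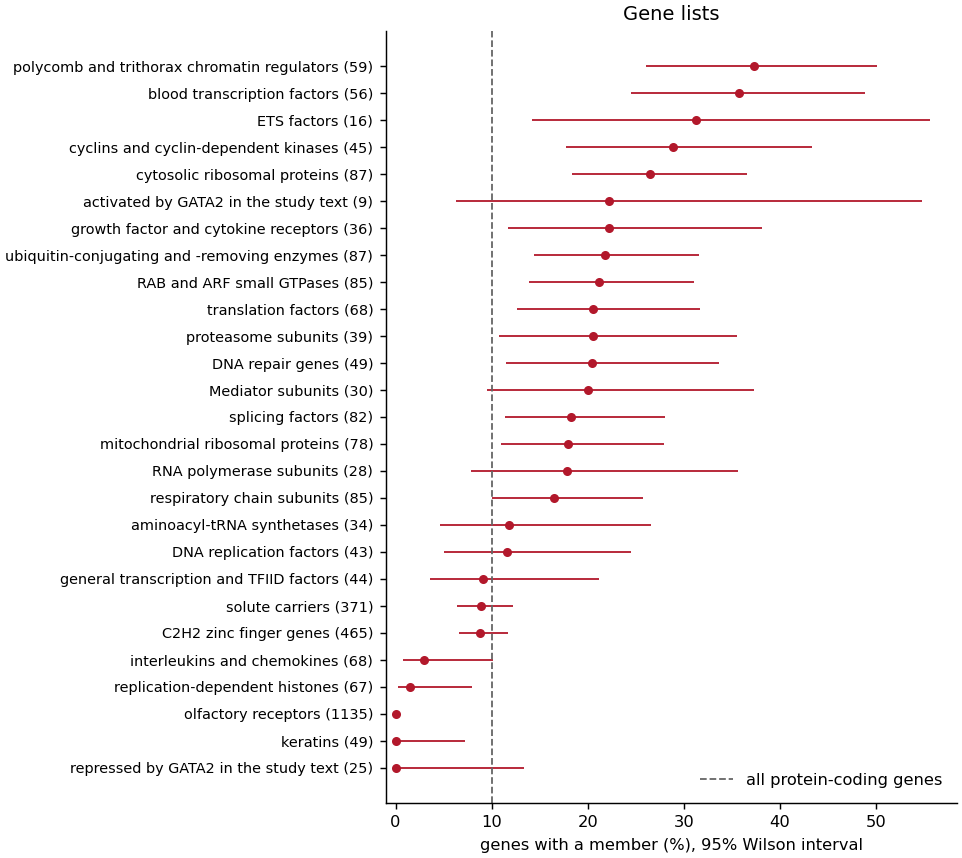
Share of the genes of each list with a member at a promoter (x axis, percent, with 95% Wilson intervals, number of genes in parentheses), with the share of all protein-coding genes as a dashed line at 10%. Chromatin regulators (37.3%) and blood transcription factors (35.7%) lie farthest right, and olfactory receptors, keratins and the genes named as repressed are at 0.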

How the data were processed

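The anti-HA CUT&Tag libraries of GATA2 and 9aa-Ins were analysed from 2 merged peak lists. The authors aligned reads to mm10 with Bowtie2 and called peaks with MACS3 at a q-value of 1e-06, and versions are not given in the sources used here. The deposited columns were a score for each peak, a fold enrichment (the ratio of pileup plus 1 to background plus 1), −log10 q-values, and the offset of the summit, all from the authors' peak caller. Pileup was recovered from the fold enrichment, with all values (100%) within 0.01 of a whole number of reads, and 0 columns belonged to other samples. Read totals were not used here, and the background of each list stood in for depth.

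The members and gene lists were chosen with earlier results of these data known. Starts came from the basic set of GENCODE M21, and sequences from the GRCm38 genome of RefSeq. Python 3.11.15, scipy 1.17.1 and pysam 0.24.0 were used. Shares have Wilson 95% intervals, differences have Newcombe intervals, and both cover counting error only. Limits for counts of 0 are 3 counts of the total. Classes were compared by Fisher's exact test and members with their flanks by the exact McNemar test (two-sided, Benjamini-Hochberg adjusted, threshold 0.05). Peaks are the units of these tests, so p-values do not cover the spread between replicates. The search and tests were tested on simulated data. The genes named were those of the 20 members of highest fold enrichment, the 5 widest, all members of the lists from the study, ETS factors, blood factors and receptors, and up to 4 of the tallest for each other list, of which not all are given.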

Additional observations from a re-analysis of the deposited data

How the results depend on the processing

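No paired analysis was possible because both deposited lists hold merged replicates, and no replicate could be left out. The number of members lay between 1559 (any GATA core excluded) and 2219 (reciprocal overlap of 50%) over the 10 alternatives that changed the choice. The other alternatives kept subsets of the members, the smallest of them 1255 within 55% to 70% GC. The comprehensive annotation (2101 members), windows free of repeats and the loss of histone promoters were added after the data were seen.

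The number of motifs passing against GATA2-only promoter peaks with WGATAR fell from 4 to 2 at a q-value of 1e-10, with promoters of 1 kb or without repeats, and to 1 within 55% to 70% GC, and was 6 with windows of 200 bp or any GATA core excluded. Against distal peaks it fell from 15 to 9 within that GC range and was at most 16. Against shared promoter peaks it was 2 with reciprocal overlap of 50% and 0 with windows of 50 bp, 55% to 70% GC, 12 to 20 reads or no histone promoters. Beside flanks it was 15 to 19.

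The start-proximal difference from peaks with WGATAR did not pass at 2.08 points (55% to 70% GC), 7.53 points (12 to 20 reads) and 6.18 points (no repeats). That from shared promoter peaks passed at 6.08 points (q 1e-08), 7.99 (q 1e-10), 5.05 (promoters of 1 kb), 5.23 (windows of 50 bp), 4.91 (windows of 200 bp), 5.22 (1 peak per gene) and 5.13 (no histone promoters). The CpG-rich difference from shared promoter peaks passed at -5.33 points (windows of 200 bp) and -5.01 points (no histone promoters), and was between -5.33 and -0.724 points in all 15 alternatives.

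Differences that never passed changed sign. The divergent share differed by -0.115 points from peaks with WGATAR (any GATA core), and by 2.32 (reciprocal overlap of 50%) and 0.372 points (12 to 20 reads) from shared peaks. The share with a separate WGATAR peak differed by -0.134 (q 1e-08), -3.34 (q 1e-10), -1.76 (reciprocal overlap of 50%), -1.74 (summits within 200 bp), -0.584 (windows of 50 bp) and -4.07 points (any GATA core). The cause of these changes was not tested. The difference in WGATAR within 200 bp passed in all 14 alternatives run (4.10 to 7.29 points). With 9 reads as the lowest pileup, lower occupancy was not detectable in either list.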
